A study of Mus musculus with 17 samples.

Results

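The 38 genes described here encode cyclins and proteins of DNA replication and mitosis. They were taken as a given list of mouse symbols from the 49585 Ensembl identifiers counted in every library. Of these, 5 are cyclins of the G1 phase, 12 act in DNA replication (S phase), and 21 act in the G2 phase and in mitosis (G2/M). The study sequenced RNA of sorted bone marrow endothelial cells from mice labelled WT and from mice labelled KO, of a study that used the line Cdh5:CreERT2-Engf/f. Eng encodes endoglin, a co-receptor for ligands of the TGF-beta family on endothelial cells. In this line, exons 5 and 6 of Eng lie between loxP sites, and a tamoxifen-dependent Cre recombinase is expressed from the promoter of the endothelial gene Cdh5. All animals of all 4 groups are labelled as injected with tamoxifen, which was done at an age of 8 weeks, and cells were collected 2 or 4 weeks afterwards. Whether WT animals had a Cre transgene is not given in the labels. There were 4 WT libraries (2 female, 2 male) and 4 KO libraries (2 female, 2 male) at 2 weeks, and 5 WT libraries (2 female, 3 male) and 4 KO libraries (1 female, 3 male) at 4 weeks. Sorted cells lacked CD45 and Ter119 and carried CD31 and Sca1 according to the labels, while the series text gives this gate without Sca1. It is not stated whether a library is 1 animal or a pool, so p-values measure the spread between these libraries.

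A dividing cell passes from G1 through S phase and G2 into mitosis. D-type cyclins pair with Cdk4 and Cdk6 and relay growth factor signals to the retinoblastoma protein, which releases E2F factors, and E-type cyclins then drive the entry into S phase. Replication genes load and run the DNA helicase and supply nucleotides, whereas the genes of the last group are transcribed late in the cycle and build, check and resolve the mitotic spindle. Endothelium of adult bone marrow is known to divide rarely at rest, and D cyclins are also transcribed in cells that are not dividing.

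Total counts per library ran from 20477400 to 40882715. The time points differed in the libraries themselves: at 2 weeks 10886 to 13583 genes had a count and mitochondrial transcripts took 22.2% to 29.5% of counts, against 15996 to 21235 genes and 4.66% to 8.99% at 4 weeks. Time and any batch of library preparation cannot be told apart, since every 2-week library differed from every 4-week library in both measures. The targeted gene Eng had 42409, 44275, 22964 and 49300 counts in the 2-week WT libraries f1, f4, m2 and m3 and 6008, 9026, 10312 and 9426 in the KO libraries of the same names. At 4 weeks Eng had 61292 to 87476 counts in WT, and 17886, 8620, 44103 and 7227 counts in KO libraries f2, m1, m2 and m3. Each KO library thus lay below each WT library of its time. On the log2 scale the KO to WT difference of Eng came to -1.96 (SE 0.25) after 2 weeks and -1.72 (SE 0.50) after 4 weeks, with edgeR adjusted p of 0.612 and 0.9997, and a two-sided exact permutation of the libraries had p = 0.0286 and p = 0.00794, the smallest that each design allows. Summed endothelial markers (10 genes, among them Pecam1, Cdh5 and Kdr) were at 5254 to 7449 CPM (read counts divided by the library total, on the usual CPM scale) at 2 weeks and 11370 to 13221 CPM at 4 weeks. Of these markers, Stab2 was at or under 3 counts in 5 libraries. The 4-week libraries fell into 2 clusters over abundant genes other than the 38 and Eng, with WT f3 and m3 and KO f2 and m3 in the smaller one.

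Promoters of 5 of the genes are printed because cell cycle phase is tied to known promoter elements. A link between these elements and the counts described here was not tested. RefSeq promoter windows (build GRCm38.p6, 250 bases before to 50 after a start) were on hand for 30 of the 38 genes, as 32 windows. Capitals mark matches, on either strand, to the cell cycle homology region (CHR, TTTGAA), the CCAAT box (CCAAT) and E2F-type sites (TTCCCGC or TTTGGCG); none of these motifs contains another. The windows are chr17:47504801-47505100 (Ccnd3, plus strand), chr1:128359656-128359955 (Mcm6, minus strand), chr2:132253131-132253430 (Pcna, minus strand), chr2:172370521-172370820 (Aurka, minus strand) and chr2:164769679-164769978 (Ube2c, plus strand), each read 5′ to 3′ on the strand of its gene.
Ccnd3: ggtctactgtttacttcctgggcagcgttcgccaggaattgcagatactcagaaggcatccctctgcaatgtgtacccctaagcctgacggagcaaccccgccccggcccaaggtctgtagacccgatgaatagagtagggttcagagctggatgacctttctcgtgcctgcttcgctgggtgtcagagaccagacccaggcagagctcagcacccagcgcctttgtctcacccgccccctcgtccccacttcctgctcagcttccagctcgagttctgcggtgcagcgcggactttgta
Mcm6: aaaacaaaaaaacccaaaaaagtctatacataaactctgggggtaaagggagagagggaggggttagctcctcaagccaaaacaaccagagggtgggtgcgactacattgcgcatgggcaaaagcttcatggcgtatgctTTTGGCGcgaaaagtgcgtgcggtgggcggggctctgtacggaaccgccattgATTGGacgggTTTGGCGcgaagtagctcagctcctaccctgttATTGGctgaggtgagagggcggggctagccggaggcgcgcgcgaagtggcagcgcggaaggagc
Pcna: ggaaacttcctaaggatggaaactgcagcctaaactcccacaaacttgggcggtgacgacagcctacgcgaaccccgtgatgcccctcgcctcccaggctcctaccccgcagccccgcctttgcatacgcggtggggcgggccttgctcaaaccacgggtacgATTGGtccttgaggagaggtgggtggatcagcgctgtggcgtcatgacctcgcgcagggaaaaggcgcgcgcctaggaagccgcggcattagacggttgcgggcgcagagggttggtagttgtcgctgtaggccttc
Aurka: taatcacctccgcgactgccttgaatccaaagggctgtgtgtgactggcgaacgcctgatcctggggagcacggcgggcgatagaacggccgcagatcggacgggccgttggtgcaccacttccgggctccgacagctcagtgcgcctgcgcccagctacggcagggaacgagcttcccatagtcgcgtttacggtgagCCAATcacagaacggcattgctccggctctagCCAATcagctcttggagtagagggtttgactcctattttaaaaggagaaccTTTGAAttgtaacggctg
Ube2c: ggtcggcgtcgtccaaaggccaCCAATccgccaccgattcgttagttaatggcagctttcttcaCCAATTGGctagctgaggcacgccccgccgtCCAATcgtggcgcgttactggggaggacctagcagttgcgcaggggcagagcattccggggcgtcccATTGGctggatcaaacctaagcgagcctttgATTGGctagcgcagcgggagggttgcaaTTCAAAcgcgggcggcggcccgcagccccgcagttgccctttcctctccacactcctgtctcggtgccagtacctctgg

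The Ccnd3 window printed had no match to any of the 3 motifs; a second Ccnd3 window further along the gene held a CCAAT box. Mcm6 held 2 E2F matches, both TTTGGCG, and 2 CCAAT boxes, and Pcna held 1 CCAAT box. Aurka held 2 CCAAT boxes and, near the end of the window, 1 CHR match, and Ube2c held 6 CCAAT boxes and 1 CHR match, with 2 of the boxes overlapping on opposite strands. Over the windows at hand, CHR occurred in 12 of 17 G2/M promoters (70.6%), 1 of 12 replication promoters (8.33%) and 0 of 3 G1 cyclin promoters, against 17.9% of all 32851 windows of this length. E2F-type sites occurred in 8 of 12 replication promoters (66.7%) and in 0 of 17 G2/M and 0 of 3 G1 cyclin promoters, against 5.99% of all windows. CCAAT boxes were found in 15 of 17 G2/M promoters (88.2%), 8 of 12 replication promoters (66.7%) and 1 of 3 G1 cyclin promoters, against 37.4% overall. The 3 G1 cyclin windows came from 2 genes, Ccnd3 and Ccne1, and Ccnd1, Ccnd2 and Ccne2 had no window. A match says only that these letters are present in the window.

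The 3 groups of genes differed in how regularly they were detected. The D cyclins, Pcna and Mcm6 gave more than 3 counts in each of the 17 libraries, while most mitosis genes were missing from many libraries, above all at 2 weeks. At 2 weeks 131 of 304 member values (43.1%) were exactly 0, against 48 of 342 (14%) at 4 weeks. By group of genes, 22.5% of G1 cyclin values, 30.2% of replication values and 55.4% of G2/M values were 0 at 2 weeks, and 0%, 4.63% and 22.8% at 4 weeks. Over the 16312 protein-coding genes that had a count in some library, 45.7% of values were 0 at 2 weeks and 22.0% at 4 weeks, so the whole transcriptome had more zeros at 2 weeks. A library of the depth used here would give a gene 3 counts at 0.0734 to 0.147 CPM, which is the limit a count of 0 allows. Intervals and limits of this kind cover counting error only, since the reads carry no molecular identifiers.

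**Figure D1:**
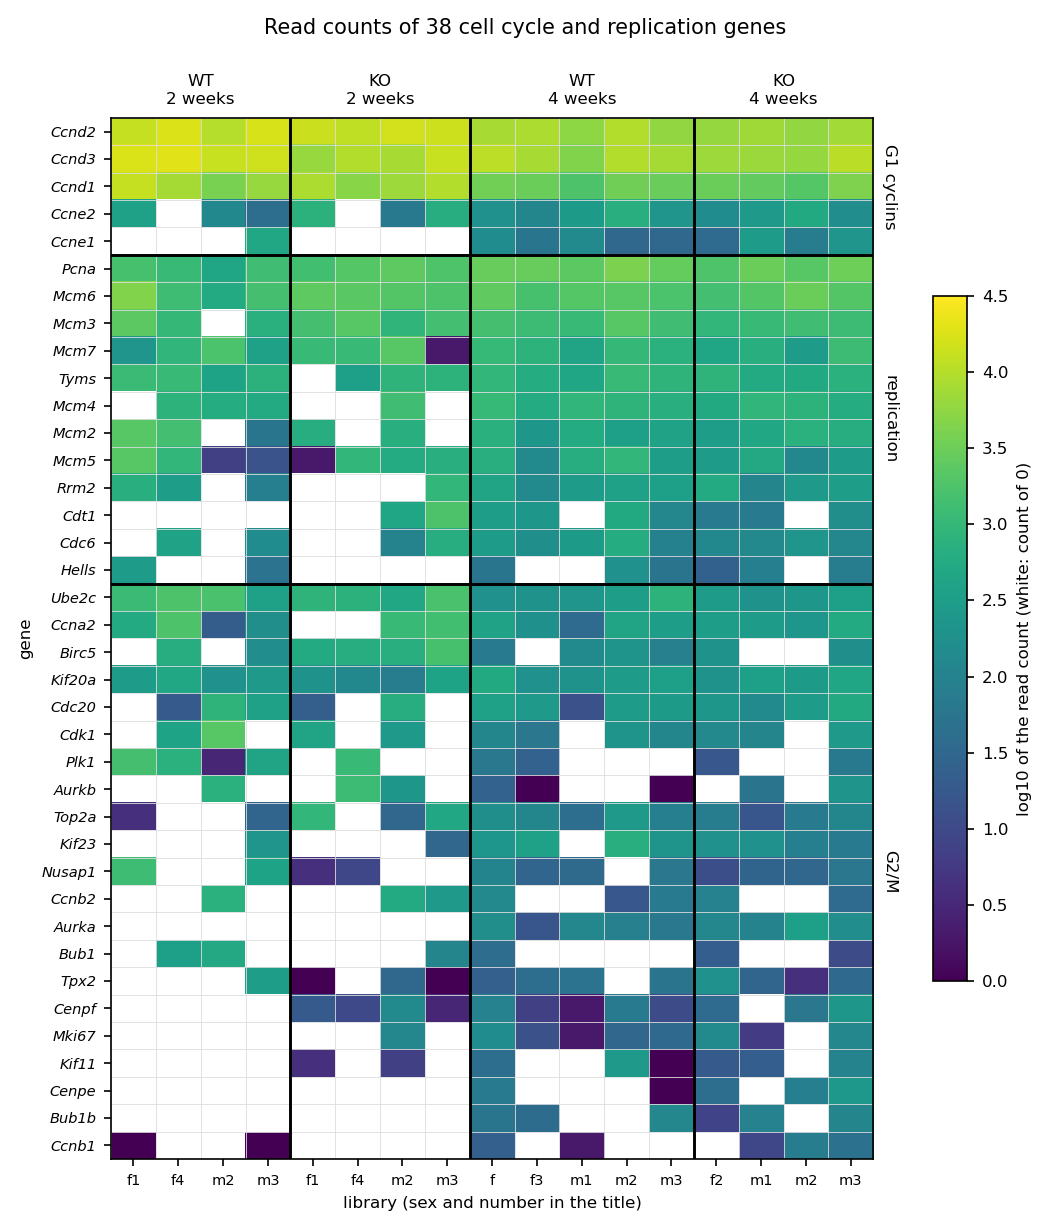
Read counts of the 38 genes (rows, in 3 groups, ordered by mean count) in the 17 libraries (columns, in 4 groups), coloured by log10 of the count, with counts of 0 in white. The D cyclins, Pcna, Mcm6, Ube2c and Kif20a are filled in every library, and white cells are densest among G2/M genes at 2 weeks.

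Values at 2 weeks were mostly either 0 or high, for the members as for all protein-coding genes. Of the 304 member values at 2 weeks, 22 (7.24%) lay between 4 and 99 counts and 143 (47.0%) were at 100 or more. At 4 weeks 79 of 342 values (23.1%) lay between 4 and 99 counts and 208 (60.8%) at 100 or more. Over protein-coding genes, 6.35% and 44.6% of values lay in these classes at 2 weeks and 14.8% and 59.8% at 4 weeks. The 6 subunits of the MCM helicase (Mcm2 to Mcm7), which act together as 1 ring, show this within single libraries. In the 2-week WT library f1 Mcm6 had 4358 counts, Mcm3 2352, Mcm2 2167, Mcm5 2115 and Mcm7 222, and Mcm4 had 0. Of the 8 libraries at 2 weeks, 5 had at least 1 subunit at 0 counts. At 4 weeks the lowest subunit of any library still had 126 counts (Mcm5 in KO m2), so none was at 0.

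**Figure D2:**
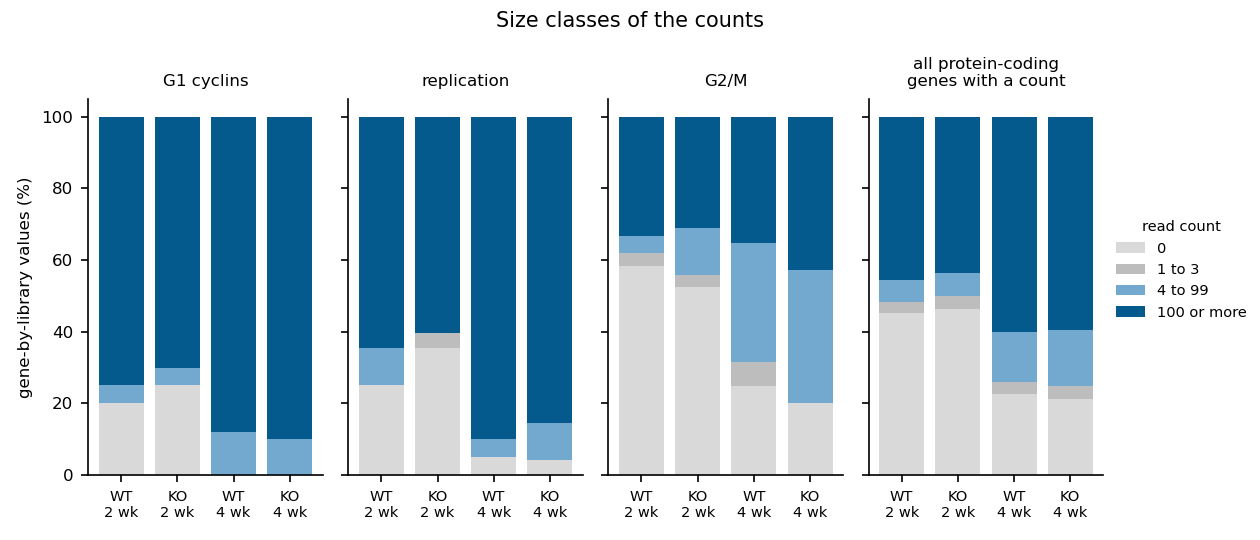
Share of gene-by-library values (vertical axis, percent) with a count of 0, of 1 to 3, of 4 to 99 and of 100 or more, for each group of genes and for all protein-coding genes with a count in some library. Bars are the 4 sample groups; zeros took 55.4% of G2/M values at 2 weeks and 22.8% at 4 weeks.

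Among the zeros, 3 mitosis genes had no count in any of the 8 libraries at 2 weeks: Aurka (Aurora A, a kinase of the spindle poles), Bub1b (BubR1, a spindle checkpoint protein) and Cenpe (a kinesin of the kinetochore). Ccnb1 (cyclin B1, partner of Cdk1 at mitotic entry) had 1 count in each of 2 WT libraries at 2 weeks and 0 in the other 6. Mki67, which encodes the proliferation antigen Ki-67, had 120 counts in the KO library m2 at 2 weeks and 0 in the other 7 libraries. In 4-week libraries Mki67 had 155, 13, 2, 30 and 35 counts in WT f, f3, m1, m2 and m3, and 145, 6, 0 and 123 in KO f2, m1, m2 and m3. Both genotypes thus held libraries with more than 100 counts of Mki67 and libraries with 2 or fewer. At 4 weeks WT f and KO m3 had a count for each of the 38 genes, whereas WT m1 and KO m2 had 11 genes at 0.

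Ordered by RPKM, which is CPM divided by exon length in kilobases (mean of the 4 group means), a scale on which genes can be compared, Ccnd3 (37.8), Ccnd2 (36.4), Ccnd1 (35.9) and Pcna (30.8) came first. They were followed by Mcm6 (14.6), Mcm3 (11.3), Ube2c (8.28) and Mcm7 (6.37). The lowest were Ccnb1 (0.0881), Cenpf (0.0967), Kif11 (0.118), Cenpe (0.121) and Mki67 (0.137 RPKM). The 3 D cyclins did not separate from each other in this order, since the group means of Ccnd3 ran from 33.0 to 50.1 RPKM, those of Ccnd2 from 28.5 to 47.3 and those of Ccnd1 from 21.8 to 52.4. The order differed between times: Pcna had group means of 12.0 (WT) and 25.6 RPKM (KO) at 2 weeks, below each D cyclin, and of 43.6 and 42.1 RPKM at 4 weeks, above each of them. Mean levels of the 13 genes between Plk1 (3.02) and Nusap1 (0.862 RPKM) lay close together, and each of them but Kif20a was at 0 in 2 or more libraries. Some of these values may hold reads of other genes: an exon of Kif20a overlaps Cdc23 on the opposite strand and one of Ube2c overlaps Tnnc2, and the strand setting of the counting is not given in the sources used here. The same holds for Ccnd1 (LTO1), Ccnd2, Ccnd3 (Bysl), Ccne2 (Ints8), Mcm7 (Cops6 and Ap4m1), Ccna2 (Exosc9), Plk1, Nusap1 (Oip5) and Cdc20 (Elovl1). Pcna has 2 annotated pseudogenes and Ccnd3, Ccnb1 and Ccnb2 have 1 each, with which reads could be shared.

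The G1 cyclins were the most abundant group in each library. Ccnd1, on chromosome 7 (144929931 to 144939925, minus strand), had 12793, 7928, 3918 and 6356 counts in 2-week WT libraries f1, f4, m2 and m3 and 8971, 5037, 7004 and 9679 in the KO libraries. At 4 weeks it had 3528, 3029, 1748, 3346 and 2973 counts in WT f, f3, m1, m2 and m3, and 3059, 2576, 2048 and 4288 in KO f2, m1, m2 and m3. Scaled to library totals the times overlapped: Ccnd1 was at 120 to 337 CPM in WT and 148 to 336 CPM in KO at 2 weeks, and at 68.4 to 121 CPM and 76.5 to 163 CPM at 4 weeks. Ccnd2, on chromosome 6 (127125162 to 127152193, minus strand), was at 340, 454, 306 and 442 CPM in WT and 524, 344, 515 and 398 CPM in KO at 2 weeks. At 4 weeks Ccnd2 was at 239, 334, 215, 308 and 244 CPM in WT and 304, 264, 224 and 286 CPM in KO. The genotypes overlapped at both times. Ccnd3, on chromosome 17 (47505051 to 47599691, plus strand), was at 470, 481, 404 and 402 CPM in WT and 236, 288, 277 and 358 CPM in KO at 2 weeks, where the highest KO library lay below the lowest WT library. At 4 weeks Ccnd3 was at 333, 307, 172, 314 and 325 CPM in WT and 343, 252, 233 and 404 CPM in KO, and the genotypes overlapped.

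The E cyclins, which activate Cdk2 at the start of S phase, were far lower and less regular. Ccne1 had 503 counts in WT m3 at 2 weeks and 0 in the other 7 libraries of that time, and at 4 weeks WT libraries had 32 to 154 counts and KO libraries 37 to 307. Ccne2 was at 0 in 1 WT and 1 KO library at 2 weeks and reached 773 counts in KO f1. At 4 weeks it had 118 to 703 counts in WT and 154 to 547 in KO, so each library of that time contained both E cyclins.

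Replication genes held an intermediate place. Pcna, the sliding clamp of the DNA polymerases (chromosome 2, 132249162 to 132253314, minus strand), was at 40.3, 26.7, 13.3 and 35.2 CPM in WT and 52.1, 61.8, 82.4 and 49.2 CPM in KO at 2 weeks. At 4 weeks it was at 83, 108, 89.9, 132 and 111 CPM in WT and 87.5, 115, 79.2 and 122 CPM in KO. The 2-week WT libraries were the lowest of all 17, the 2-week KO libraries lay above each of them, and the genotypes overlapped at 4 weeks. Mcm6 had 4358, 1247, 572 and 1497 counts in WT and 2420, 2195, 2007 and 1753 in KO at 2 weeks, while 4-week libraries had 1575 to 2561 (WT) and 1441 to 3111 (KO). Tyms and Rrm2, which supply deoxynucleotides, differed in regularity at 2 weeks: Tyms was at 0 in 1 of 8 libraries and Rrm2 in 4. The licensing factor Cdc6 and the chromatin remodeller Hells were at 0 in 4 and 6 of the 8 libraries at 2 weeks, Hells in all 4 KO libraries.

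Cdt1, which loads the helicase at origins together with Cdc6, had 465 counts in KO m2 and 1731 counts in KO m3 at 2 weeks and 0 in the other 6 libraries. At 4 weeks it had 337, 244, 0, 532 and 123 counts in WT f, f3, m1, m2 and m3 and 73, 71, 0 and 165 in KO f2, m1, m2 and m3. Transcripts of neutrophils and their precursors were also highest in the 2-week KO libraries m2 and m3. All 11 genes of that marker list were detected in m2 and 10 of 11 in m3, with summed levels of 4169 and 3140 CPM, against 107 and 238 CPM in KO f1 and f4, 22.6 to 108 CPM in the 2-week WT libraries and 19.9 to 103 CPM at 4 weeks. The part of these transcripts in the Cdt1 values was not tested. In a sorted bulk sample, a larger share of some cells and more RNA per cell cannot be told apart.

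Within the G2/M genes, Ube2c, which encodes the E2 enzyme of the anaphase-promoting complex, had the highest mean over all libraries. It was at 31.1, 42.9, 49.5 and 9.83 CPM in WT and 31.4, 22.6, 16.6 and 43.7 CPM in KO at 2 weeks, and at 5.54, 7.71, 8.65, 10.1 and 33.4 CPM in WT and 14.9, 7.35, 9.15 and 13.1 CPM in KO at 4 weeks. In 4-week KO Ccna2 (14.4 CPM on average), Kif20a (12.9) and Cdc20 (12.0) lay above Ube2c (11.1 CPM). Apart from WT m3 at each time, the 2-week libraries had more Ube2c than the 4-week libraries of the same genotype. Ccna2 (cyclin A2) was at 0 in 2 KO libraries at 2 weeks and at 21 to 1768 counts in the other 6, and at 37 to 556 counts at 4 weeks. Birc5 (survivin) and Aurkb, both of the chromosomal passenger complex, were not always detected in the same libraries: Birc5 had 573, 626, 700 and 1530 counts in KO f1, f4, m2 and m3 at 2 weeks, where Aurkb had 0, 1222, 244 and 0. In WT at 2 weeks Birc5 had 0, 636, 0 and 163 counts. Plk1, a kinase of mitotic entry and exit, had 1461, 736, 3 and 427 counts in WT and 0, 1110, 0 and 0 in KO at 2 weeks, and 63, 26, 0, 0 and 0 in WT and 17, 0, 0 and 65 in KO at 4 weeks. Top2a, the topoisomerase that untangles sister chromatids, had 4, 0, 0 and 29 counts in WT and 944, 0, 30 and 480 in KO at 2 weeks, while 4-week libraries had 42 to 257 (WT) and 16 to 118 (KO). For both genes the high values at 2 weeks came from some libraries of a group and not from others.

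Aurka (chromosome 2, 172356190 to 172370535, minus strand) was at 0 in all 8 libraries at 2 weeks and present in all 9 at 4 weeks. It had 170, 16, 123, 91 and 63 counts in WT f, f3, m1, m2 and m3 and 120, 104, 351 and 163 counts in KO f2, m1, m2 and m3. The KO libraries overlapped the upper part of the WT range. Cenpe had 70, 0, 0, 0 and 1 counts in WT and 42, 0, 89 and 255 in KO at 4 weeks. Cenpf, a protein of the outer kinetochore, had 0 counts in the 4 WT libraries and 19, 10, 143 and 3 in the KO libraries at 2 weeks. At 4 weeks Cenpf had 97, 7, 2, 75 and 11 counts in WT and 37, 0, 60 and 239 in KO. The remaining genes varied from library to library: Kif23 was at 0 in 6 of 8 libraries at 2 weeks and reached 677 counts in WT m2 at 4 weeks, Nusap1 had 1254 and 408 counts in WT f1 and m3 at 2 weeks and at most 9 in KO, and Bub1 was at 0 in 11 of 17 libraries. Cdk1, Ccnb2, Tpx2, Cdc20 and Kif11 were at 0 in 6, 9, 5, 3 and 9 of the 17 libraries. The highest values of these were 2114 counts for Cdk1, 761 for Ccnb2 and 851 for Cdc20, each in WT m2 at 2 weeks, 322 for Tpx2 in WT m3 at 2 weeks, and 270 for Kif11 in WT m2 at 4 weeks. Kif20a was detected in all 17 libraries, at 80 to 543 counts.

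Summed over each group, the 5 G1 cyclins came to 1037 ± 146 CPM for WT and 994 ± 149 CPM for KO at 2 weeks (SD, n = 4 each), and to 675 ± 117 CPM for WT (n = 5) and 716 ± 145 CPM for KO (n = 4) at 4 weeks. The 12 replication genes summed to 220.0 ± 124 and 294 ± 61.4 CPM in WT and KO at 2 weeks and to 378 ± 51.9 and 372 ± 20.9 CPM at 4 weeks. For the 21 G2/M genes the sums were 139 ± 56.6 and 134 ± 23.5 CPM at 2 weeks and 79.2 ± 32.3 and 99.9 ± 42.6 CPM at 4 weeks. WT and KO overlapped in all 3 sums at both times. Sums say little of single genes: in WT m2 at 2 weeks Cdk1 alone made up 31.0% of the G2/M sum while 12 of the 21 genes were at 0. Within the 4-week libraries, the cluster of WT f3 and m3 and KO f2 and m3 had G2/M sums of 58.0, 110, 117 and 152 CPM, and the other 5 libraries had 33.6 to 103 CPM.

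**Figure D3:**
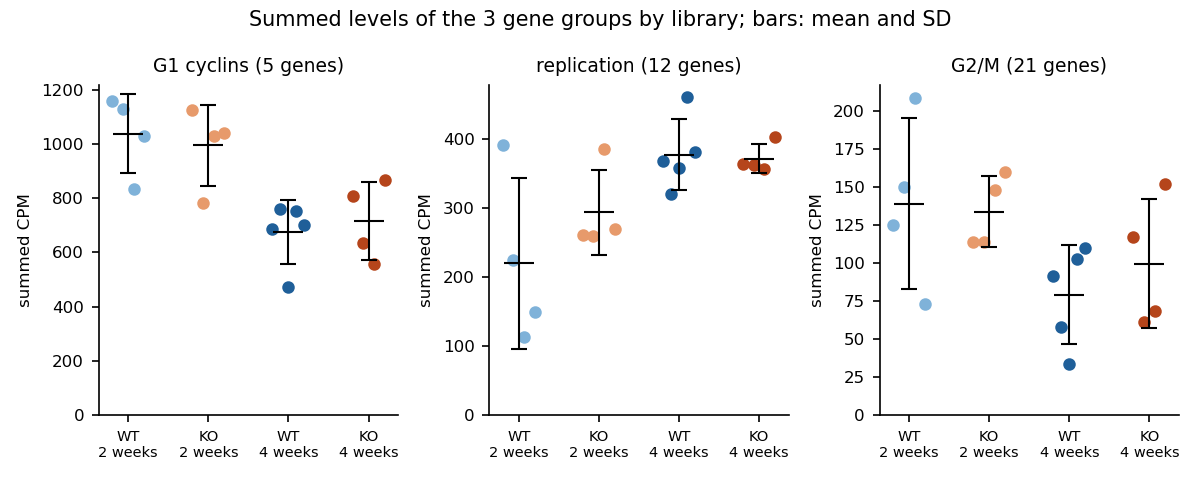
Summed CPM (vertical axis) of the G1 cyclins, the replication genes and the G2/M genes in each library (points), with mean and SD per group (bars). G1 cyclin sums centre on 1037 and 994 CPM at 2 weeks and 675 and 716 CPM at 4 weeks, and WT and KO overlap in each panel.

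Whether loss of Eng changed these genes was tested within each time. At 2 weeks no member was past the threshold: 0 of the 22 members with enough counts to be tested had an edgeR adjusted p under 0.05, and the same held for 0% of all 10477 genes tested. Without adjustment 1 member, Ccnd3, and 276 of all genes had p under 0.05. DESeq2 and limma voom also called 0 members (of all genes, DESeq2 called 55 higher and 96 lower in KO, and limma voom 4 and 8). With all 17 libraries in 1 edgeR fit, 13 of 15703 genes were called higher and 18 lower in KO at 2 weeks. In that fit 2377 genes had an unadjusted p under 0.05. The values that follow are from the fit of the 2-week libraries alone. The members tested had a median log2 fold change of 0.11, with 12 positive and 10 negative, against -0.06 over all genes. Ccnd3 was at 439 ± 41.9 CPM in WT and 290.0 ± 50.8 CPM in KO (SD, n = 4 each), a log2 fold change of -0.59 ± 0.18 (SE) with an edgeR adjusted p of 1. Pcna was at 28.9 ± 11.8 and 61.4 ± 15.0 CPM, a log2 fold change of 1.08 ± 0.53 with an adjusted p of 1. Top2a, at 0.219 ± 0.37 and 12.4 ± 16.4 CPM, had a log2 fold change of 6.17 ± 3.43 with an adjusted p of 1, and its value fell between 2.70 and 8.95 as single libraries were left out. Ccnd2 and Ube2c, the members of their groups with the highest mean CPM, had log2 fold changes of 0.20 ± 0.21 and -0.18 ± 0.75.

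Libraries of the genotypes did not overlap for 3 of the 22 tested members at 2 weeks: Pcna and Birc5 were higher in each KO library and Ccnd3 was lower in each. Such separation occurred for 3.36% of all genes tested. Erythroid transcripts were also higher in each KO library at 2 weeks: their 10 markers summed to 61.4 to 195 CPM in WT and 278 to 1249 CPM in KO, mostly globin RNA, with Klf1 at 0 in all 8 libraries. Their part in the values of Pcna, Birc5 and Ccnd3 was not tested. Each of the 3 members had p = 0.0286 in the two-sided exact permutation over 70 assignments, the smallest possible, and 0.843 after adjustment over all genes. The other 16 members did not reach the count filter, among them Cdt1 (0 in all WT libraries, 15.8 ± 22.4 CPM in KO) and Cenpf (0 in all WT libraries, 1.48 ± 2.24 CPM in KO). Set against 3 counts per WT library, Cdt1 was at least 195-fold higher and Cenpf at least 18.2-fold higher in the KO mean. For Cdt1 this rests on m2 and m3, and without m3 the bound was 64.4-fold. For Cenpf it rests mainly on m2, without which the KO mean was 0.363 CPM and the bound 4.48-fold. Mki67 and Kif11, also at 0 in all WT libraries, had bounds of 12.5-fold and 1.19-fold. In the other direction, Ccne1 and Hells were at 0 in all KO libraries, with bounds of 34.7-fold and 24.7-fold in WT. That of Ccne1 rests on WT m3 alone. Such bounds cover counting error only, at a time when 45.7% of all protein-coding values were 0. Without KO m2 and m3 the call counts stayed at 0, Ccnd3 had a log2 fold change of -0.89 and Pcna of 0.73.

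At 4 weeks, when libraries of a group were more alike (median biological coefficient of variation 48.8% against 119% at 2 weeks), again none of the members tested was past the threshold. The edgeR count was 0 of 35 members and 0% of all 15209 genes, no member and 422 genes had an unadjusted p under 0.05, and DESeq2 and limma voom called 0 members (of all genes, DESeq2 called 11 higher and 6 lower). The median log2 fold change was 0.05 over the members, with 21 positive and 14 negative, against 0.01 over all genes. No member had separate WT and KO libraries, while 1.19% of all genes tested did. The 3 members with the smallest p were mitosis genes. Cenpe, with means of 0.423 ± 0.924 CPM for WT (SD, n = 5) and 3.76 ± 4.17 CPM for KO (n = 4), had a log2 fold change of 6.45 ± 3.0 with an edgeR adjusted p of 0.9997, and of 3.18 with no sex term. Plk1 had similar means of 0.566 ± 0.839 CPM for WT and 0.824 ± 1.16 CPM for KO, yet a fitted log2 fold change of 5.23 ± 2.96 with the same adjusted p, which was 0.56 with no sex term and -0.52 without the KO library m3. Cenpe and Plk1 were at 0 in 4 and 5 of the 9 libraries, their fitted values moved with the terms of the fit, and neither reached the count filter without the WT library f. Aurka was at 3.19 ± 1.82 CPM in WT and 7.26 ± 4.03 CPM in KO, a log2 fold change of 1.16 ± 0.66 with the same adjusted p. Without KO m2, its highest library (13.1 CPM), the log2 fold change of Aurka was 0.79.

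For abundant members the difference at 4 weeks could be bounded more tightly. Ccnd2 had a log2 fold change of 0.05 ± 0.17, Pcna of -0.07 ± 0.20 and Ube2c of -0.15 ± 0.56 (SE, edgeR). The direction of Ccnd2, Pcna and Ube2c turned when single libraries were left out. Erythroid transcripts overlapped between genotypes at 4 weeks: the 10 markers summed to 165 to 1285 CPM in WT and 617 to 2904 CPM in KO at 4 weeks, with Klf1 at or under 3 counts in 11 of the 17 libraries. Their part in the member values was not tested.

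**Figure D4:**
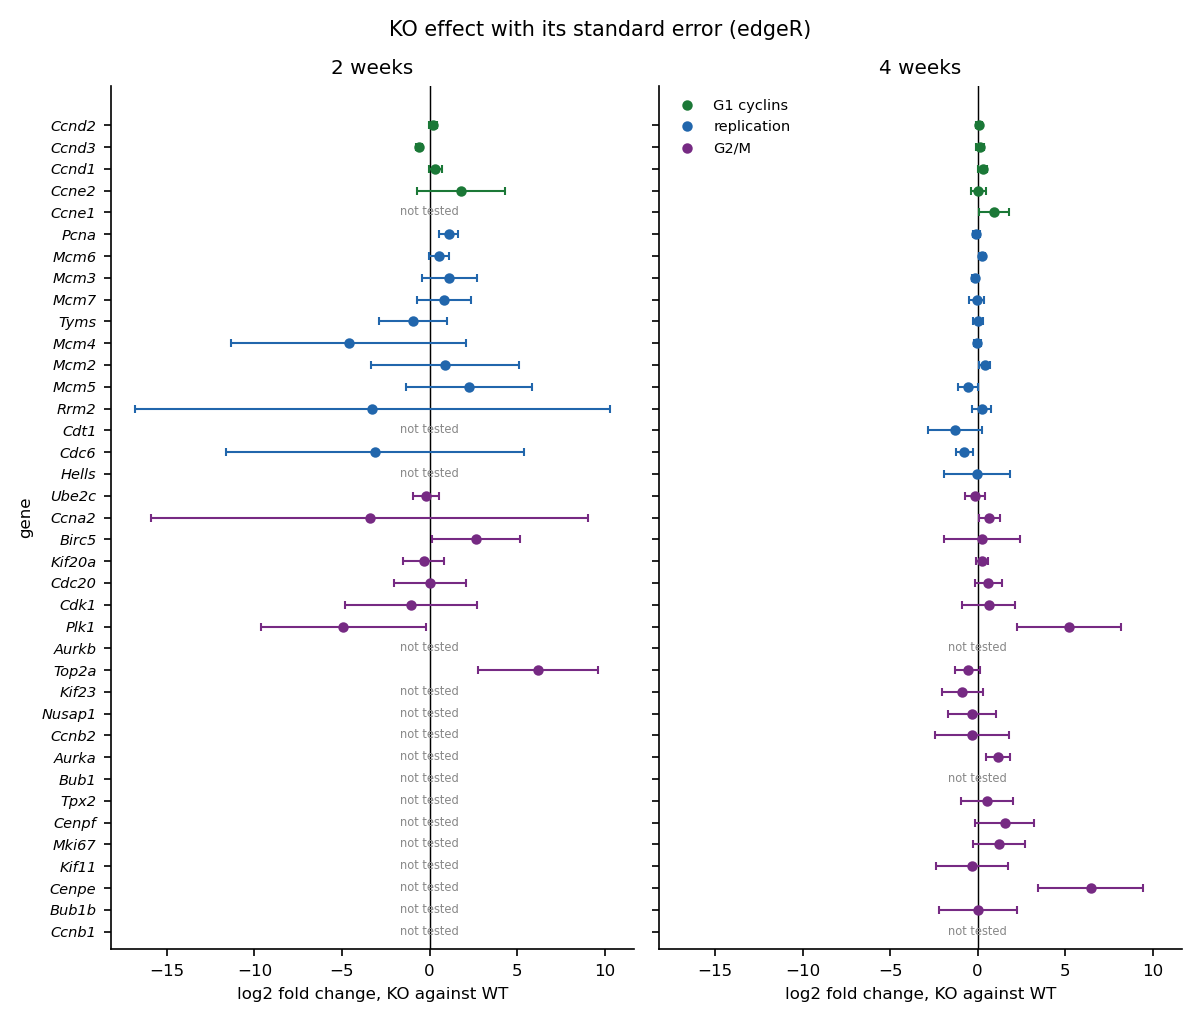
Log2 fold change of KO against WT (edgeR, horizontal axis) for each gene (rows) at 2 weeks (left) and 4 weeks (right). Colours mark the group of genes. Bars are standard errors, taken as the absolute log2 fold change over the square root of the F statistic. Genes under the count filter are marked as not tested. Errors differ by gene and time: that of Rrm2 is 13.57 at 2 weeks and 0.54 at 4 weeks, that of Ccnd2 is 0.21 and 0.17, and Cenpe and Plk1 have errors of 3.0 and 2.96 at 4 weeks.

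Whether the KO effect differed between 4 and 2 weeks was tested in 1 fit of all 17 libraries. Of 37 members tested, 0 passed an edgeR adjusted p of 0.05, against 0.0764% of all genes (12 of 15703). Without adjustment, 7 members had p under 0.05, as did 1540 of all genes: Ccne1, Cdt1, Pcna, Hells, Top2a, Cenpf and Nusap1. Pcna had a difference of -1.14 ± 0.45 (log2, SE) with an edgeR adjusted p of 0.433, from a KO effect of 1.08 at 2 weeks and -0.07 at 4 weeks. Cdt1 and Cenpf had differences of -13.25 ± 4.26 and -7.24 ± 2.60 with edgeR adjusted p of 0.369 and 0.416, and both were at 0 in all WT libraries at 2 weeks, so these fitted values depend on how a zero group is treated and are not bounds. DESeq2 called 4 members (Ccne1, Cdt1, Mki67 and Top2a) and 8.3% of all genes, and the first 3 of these were at 0 in all WT or all KO libraries at 2 weeks. Without the 2-week KO libraries m2 and m3 the Cdt1 difference was -1.14, and edgeR called 1 member, Ccna2, and 1.44% of all genes. Ccna2 had no count in the KO libraries then left at 2 weeks. For Ccnd2 and Ube2c the differences were -0.18 ± 0.28 and 0.01 ± 0.92.

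Larger differences separated the times. In WT, 5 of 37 members passed an edgeR adjusted p of 0.05: Aurka and Pcna were higher at 4 weeks and the 3 D cyclins were lower. Over all 15703 genes tested, 5.03% were called higher and 1.88% lower at 4 weeks in WT, and the median log2 fold change was 0.42 over all genes and 0.14 over the members. Pcna rose from 28.9 ± 11.8 to 105 ± 19.4 CPM, with no overlap between times and a log2 fold change of 1.53 ± 0.32 (edgeR adjusted p 0.0120). Ccnd1 fell from 205 ± 93.1 to 103 ± 20.3 CPM (log2 fold change -1.23 ± 0.31, edgeR adjusted p 0.0321), Ccnd2 from 386 ± 73.4 to 268 ± 50.5 CPM (-0.83 ± 0.19, adjusted p 0.0221) and Ccnd3 from 439 ± 41.9 to 290.0 ± 66.8 CPM (-0.89 ± 0.22, adjusted p 0.0305). With mitochondrial genes left out of the library total the 2-week means were higher, at 275 ± 130 CPM for Ccnd1, 516 ± 102 for Ccnd2 and 587 ± 55.6 for Ccnd3, against 110 ± 21.8, 288 ± 57.1 and 311 ± 70.3 CPM at 4 weeks. The 3 D cyclins were lower at 4 weeks under each scaling of the libraries. Aurka, at 0 counts in the 4 WT libraries at 2 weeks, was at least 39.4-fold higher at 4 weeks than 3 counts per 2-week library (edgeR adjusted p 0.00666). Having no count at 2 weeks, Aurka reached the count filter through the 4-week libraries alone, so its call had to be in this direction.

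Calls of the D cyclins in WT depended on single libraries, while Pcna passed in all 25 alternatives. Ccnd3 did not pass without WT f1, f4, m2 or m3 at 2 weeks or WT f or f3 at 4 weeks, with edgeR adjusted p of 0.0531 to 0.0675 and log2 fold changes of -0.94 to -0.87. Ccnd1 did not pass without WT f1 or m3 at 2 weeks or WT f, f3 or m1 at 4 weeks (adjusted p 0.0595 to 0.0921, log2 fold change -0.98 without f1), nor with no low-count filter (0.0503). Ccnd2 did not pass without WT f4 or m3 at 2 weeks or WT f at 4 weeks (adjusted p 0.0565 to 0.0689). The number of members called was 3 without WT f1, f4 or m3 at 2 weeks or WT f3 at 4 weeks, 2 without WT f at 4 weeks, and 11 with DESeq2, which added Cdt1, Cenpf, Kif11, Mki67, Top2a and Ube2c and called 18.7% of all genes. Of these added members, Cdt1, Cenpf, Kif11 and Mki67 were at 0 in all WT libraries at 2 weeks, so that, as for Aurka, a call could only be higher at 4 weeks. Without WT m3 at 2 weeks, the 3 were Aurka, Pcna and Ccne1, the last of which had no count in the WT libraries then left at 2 weeks. Calls over all genes were fewer too: the 5 fits that called 3 or 2 members called 398 to 669 genes higher and 190 to 240 lower, against 790 and 296 with all libraries.

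In KO, 3 of 37 members passed an edgeR adjusted p of 0.05 between the times: Aurka was higher at 4 weeks and Ccnd1 and Ccnd2 were lower. Over all genes tested in KO, 4.84% were called higher and 1.49% lower, with a median log2 fold change of 0.49, against 0.39 over the members. Ccnd1 fell from 247 ± 77.7 to 121 ± 41.4 CPM (log2 fold change -1.28 ± 0.33, edgeR adjusted p 0.0359) and Ccnd2 from 445 ± 88.6 to 270 ± 34.6 CPM (-1.01 ± 0.21, adjusted p 0.0111). Aurka was at least 75.6-fold higher than 3 counts per 2-week library (adjusted p 0.0058). Ccnd3, at 290.0 ± 50.8 and 308 ± 80.0 CPM, had a fitted log2 fold change of -0.22 ± 0.24 with an edgeR adjusted p of 0.751, opposite in sign to its CPM means; with mitochondrial genes left out of the total its means were 395 and 332 CPM. Pcna, at 61.4 ± 15.0 and 101 ± 20.8 CPM, had 0.39 ± 0.33 with an adjusted p of 0.621. For neither gene did the difference between the genotypes pass the test (Ccnd3 0.68 ± 0.32, edgeR adjusted p 0.522). Ube2c, lower at 4 weeks by log2 fold changes of -1.71 ± 0.66 in WT and -1.69 ± 0.69 in KO, did not pass in either (edgeR adjusted p 0.133 and 0.150). Without the 2-week KO libraries m2 and m3, Ccnd1 (-0.89, adjusted p 0.225) and Ccnd2 (-0.80, adjusted p 0.106) did not pass in KO, Aurka did, and Ccna2, Mcm4 and Rrm2 were called as well, among 6.11% of all genes. Those 3 had no count in KO f1 and f4, the KO libraries then left at 2 weeks, so their calls could only be higher at 4 weeks. Ccnd1 also did not pass without any 1 of KO f1, m2 or m3 at 2 weeks, WT f or f3, or KO f2, m1 or m2 at 4 weeks (adjusted p 0.0502 to 0.0931), or with no low-count filter (0.0552).

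**Figure D5:**
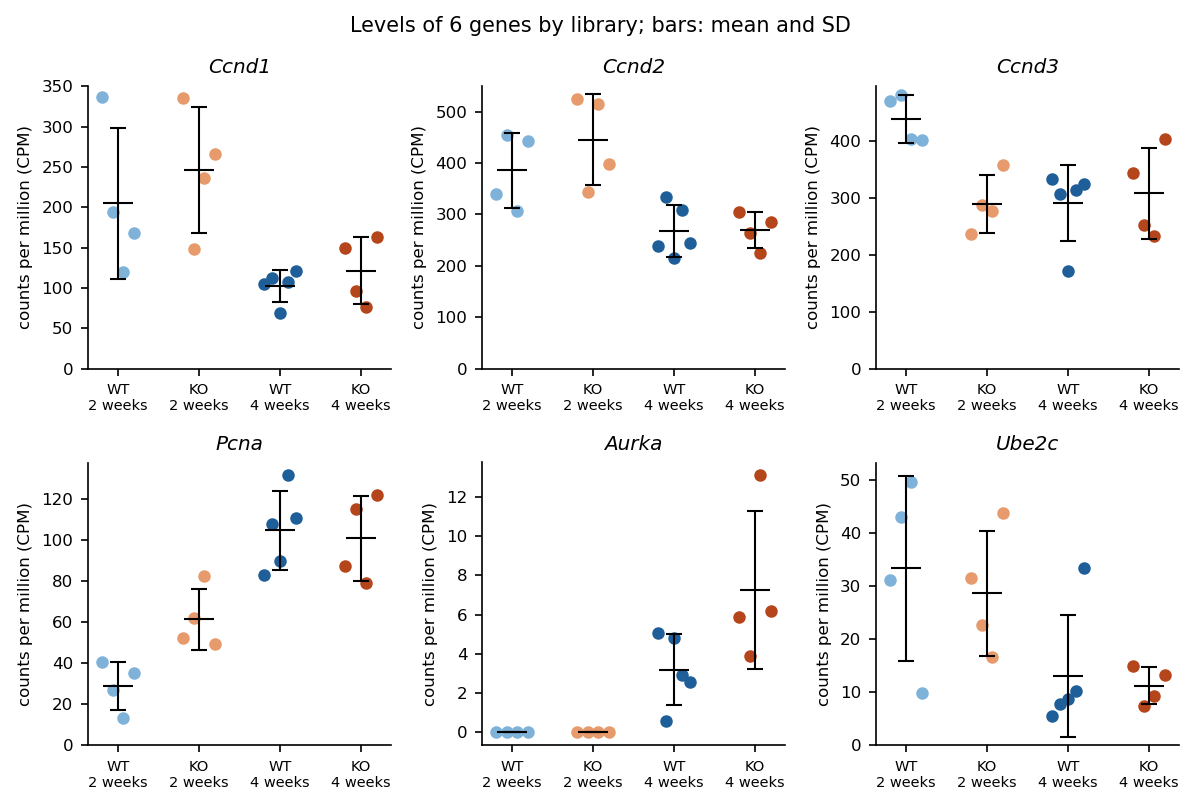
CPM (vertical axis, from 0) of Ccnd1, Ccnd2, Ccnd3, Pcna, Aurka and Ube2c in each library (points), with mean and SD per group (bars). Pcna centres on 28.9 and 61.4 CPM at 2 weeks and 105 and 101 CPM at 4 weeks, and Aurka is at 0 in all libraries at 2 weeks.

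Other genes of the pathway were read from 4 further lists. Of 7 inhibitors of cyclin-dependent kinases, 5 were tested at 2 weeks and 6 at 4 weeks, and none passed an edgeR adjusted p of 0.05 between genotypes, with 0 and 2 of them under 0.05 before adjustment (276 of 10477 and 422 of 15209 over all genes). Cdkn1a, which encodes p21 and arrests cells in G1, had the smallest p at 4 weeks: it was at 604, 441, 693, 455 and 907 CPM in WT and 1289, 1042, 817 and 1257 CPM in KO, a log2 fold change of 0.85 ± 0.25 with an edgeR adjusted p of 0.9997. KO m2 (817 CPM) lay below the highest WT library, m3 (907 CPM), so the genotypes overlapped. Cdkn2d (p19) was at 60.2, 44.6, 35.2, 30.4 and 63.0 CPM in WT and 65.9, 67.6, 76.2 and 70.1 CPM in KO at 4 weeks, a log2 fold change of 0.63 ± 0.24 with the same adjusted p and no overlap between genotypes, as for 1.19% of all genes tested. Cdkn2b (p15) had 0 counts in the 4 WT libraries at 2 weeks and 1 count in 1 KO library, while 4-week libraries had 1 to 180 (WT) and 2 to 168 (KO). It was called higher at 4 weeks in WT and in KO (edgeR adjusted p 0.0239 and 0.0337), and Cdkn2a was at 0 in 16 of 17 libraries.

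The other 3 lists cover regulators of the G1 to S transition (18 symbols, 16 tested between times), further replication genes (39, 37 tested) and further mitosis genes (38, 34 tested). None of their genes passed between genotypes at either time with edgeR, and 1 of them, Prc1 at 2 weeks, had an unadjusted p under 0.05. Prc1, which bundles the midzone of the spindle, had 965, 59, 523 and 214 counts in WT and 0 in all 4 KO libraries at 2 weeks, with an edgeR adjusted p of 1. DESeq2 called Prc1 and no other gene of the 4 lists; having no count in KO, Prc1 reached the count filter through WT libraries alone, so this call could only be lower in KO. Pttg1 (securin, which holds back separase until anaphase) differed the other way at 2 weeks and was chosen after its values were seen. It was at 57.4, 55.3, 65.9 and 45.9 CPM in WT and 153, 69.8, 79 and 80.6 CPM in KO, with an edgeR adjusted p of 1. Prc1 and Pttg1 had no overlap between genotypes at 2 weeks, as for 3.36% of all genes tested. At 4 weeks Prc1 had 22 to 288 counts in WT and 0 to 143 in KO. Between times, Orc1, the largest subunit of the origin recognition complex, was called higher at 4 weeks in WT and in KO (edgeR adjusted p 0.0432 and 0.0439). It had 0 counts in all 8 libraries at 2 weeks and 0 to 47 at 4 weeks. In KO, E2f6, Incenp and Prc1 were also called higher at 4 weeks (edgeR adjusted p 0.0290, 0.0153 and 0.0277), each at 0 in the 4 KO libraries at 2 weeks. The called genes of these lists thus had at most 1 count in any 2-week library of the genotype in which they were called, so a call could only be in this direction, at a time when 45.7% of all protein-coding values were 0.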

How the data were processed

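RNA of 17 samples of sorted endothelial cells was sequenced as SmartSeq2 libraries. The deposited files hold raw counts per gene, 1 table per library, which the authors made with cutadapt, STAR and HTSeq 0.6.1p1 on GRCm38 (mm10), per the submitters' processing notes; other settings, strand included, are not given in the sources used here. Symbols, positions and exon lengths were taken from GENCODE M21 (49326 of 49585 identifiers matched). Totals per library were 20477400 to 40882715. Members and lists were chosen with earlier results of these data known.

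Each time was fitted alone (terms: sex, genotype) and all 17 libraries together (a mean per group, sex), with filterByExpr, TMM and the robust quasi-likelihood test of edgeR 4.0.16 in R 4.3.3. P-values were adjusted by Benjamini-Hochberg across every gene tested, and calls were made under 0.05. The SE of an edgeR log2 fold change was taken as its absolute value over the square root of the F statistic of the test. For genes at 0 in many libraries this SE is a rough scale and not a sampling error. Alternatives used DESeq2 1.42.0, limma 3.58.1 (voom), other scalings, no filter, no sex term, left-out libraries and a replicate block. Scripts were tested on simulated data. Single genes were tested by two-sided exact permutation of log2 CPM (prior count 2). Fold changes are given for members past the threshold or, where none passed, the 3 with the smallest p, and for the most abundant member of each group; genes of the other lists followed the same rule, at most 2 per direction, and some of them are printed. A floor of 3 counts per library was used for genes at 0 in a group, and it covers counting error only. No pair of libraries came close to sampling noise (lowest chi-square per degree of freedom 47.1). At 4 weeks the same-numbered males of WT and KO deviated together from their group means (correlations of 0.462, 0.174 and 0.582 over 3543 genes). The labels do not explain the numbers, and these correlations do not establish pairing. Only 1 of the 3, m3, correlated best with its own number. KO m1 and m2 correlated best with WT f, which lay in the same cluster of 4-week libraries as they did.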

Additional observations from a re-analysis of the deposited data

Results flagged for a closer look

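In groups of 4 or 5 libraries, 56 checks for a library far from the others were made on the 3 summed levels and the members with printed fold changes, and 9 passed the critical value; chance alone gives about 1 in 20. In 4-week WT, m1 stood apart as the lowest for the G1 cyclin sum (472 CPM) and for Ccnd3 (172 CPM), and f was the highest for Cenpe (2.08 CPM). Ube2c was highest in 4-week WT m3 (33.4 CPM), against at most 10.1 CPM in the other 4 WT libraries. Among the KO libraries of each time, the replication sum was highest in m2 at 2 weeks (386 CPM) and in m3 at 4 weeks (403 CPM). WT f1 at 2 weeks (392 CPM) and WT m2 at 4 weeks (461 CPM) were higher. Among the 2-week KO libraries, Cenpf was highest in m2 (4.81 CPM) and Plk1 in f4 (32.7 CPM, with the other 3 KO libraries at 0). Among the 2-week WT libraries, Top2a was highest in m3 (0.769 CPM). Over both genotypes at 2 weeks, Plk1 reached 38.5 CPM in WT f1 and Top2a 35.3 CPM in KO f1.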

How the results depend on the processing

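For KO against WT, edgeR, DESeq2 and limma voom called 0 members at 2 and at 4 weeks under each alternative. These included the replicate block of library numbers at 2 weeks and a fit of the 4-week male libraries blocked by number. At 2 weeks correlations of deviations were -0.0511 to 0.0436, and 2 of 4 KO libraries matched their own number best. The replicate block changed no call. Members called for the difference of KO effects numbered 4 with DESeq2 and 1 without KO m2 and m3 at 2 weeks (an alternative chosen after seeing the data, as was a term for the 4-week clusters). Members called between times in WT numbered 11 with DESeq2 and 2 to 6 as single libraries were left out, and in KO 5 with DESeq2, which called 18.3% of all genes there, and 2 to 4 as single libraries were left out (over all genes, 398 to 925 higher and 190 to 337 lower in WT, and 350 to 966 and 154 to 256 in KO). As single libraries were left out, the log2 fold change of KO against WT ran from -0.61 to 0.26 for Ube2c at 2 weeks, and at 4 weeks from -0.52 to 7.56 for Plk1, -0.019 to 0.15 for Ccnd2, -0.16 to 0.048 for Pcna and -0.81 to 0.49 for Ube2c, all of which turned sign; that of Cenpe kept its sign, at 5.06 to 7.99. The difference of KO effects ran from -0.31 to 0.67 for Ube2c, and was -0.0013 with upper quartile scaling, -0.012 without mitochondrial genes, -0.0105 without a filter and -0.040 without a sex term; for Ccnd2 it was 0.022 without KO m2 and m3. The cause of these changes was not tested. Counting a member as not detected at 0 counts or at 10 counts or fewer, in place of 3, gave 65 and 70 values in place of 68 in WT and 66 and 76 in place of 71 in KO at 2 weeks.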
